A study of Capra hircus with 2 samples.

Results

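The 7 genes described here were the ligands BMP2, BMP3, BMP4, BMP7 and INHBA, the receptor BMPR1A and the target ID4, chosen by symbol from the 27137 genes in the deposited count matrix of goat skin. All 7 were present in the matrix under their own symbols. Skin from the scapular region of 2 healthy Liaoning cashmere goats in anagen, the growth stage of the hair cycle, was dissociated, depleted of dead cells and captured with the 10x Chromium single-cell 3′ kit. A coarse type goat (CT-LCG) and a fine type goat (FT-LCG) gave 1 library each. The fibre type of each cell came from the deposited table of kept cells, since the sample labels do not give it. Goat and fibre type therefore cannot be told apart, no test was run between the libraries, and each interval given is an exact 95% interval for counting error only.

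Bone morphogenetic proteins and activins are secreted dimers that bind paired type I and type II receptor kinases and signal through SMAD proteins. In the hair follicle, the dermal papilla is a cluster of mesenchymal cells at the base that signals to the epithelium around it. BMP signalling is known to hold hair follicle stem cells at rest and to be needed later for hair shaft differentiation, and secreted antagonists such as noggin and follistatin limit where it acts.

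The authors kept 3443 CT-LCG cells and 9608 FT-LCG cells, with 27890472 and 85400323 unique molecular identifiers (UMIs, each standing for 1 captured RNA molecule). Median depth was 2314 and 6121.5 UMIs, so shares of cells with a UMI are given together with shares after every cell was thinned to 1000 UMIs. A level is a gene's UMI sum in a group of cells of 1 library, divided by all UMIs of that group and multiplied by 10000. Wherever values are paired without a label, CT-LCG comes first. The cells fell into 20 clusters, which were joined into 17 classes named from marker genes or from their leading genes, and 16 classes with at least 20 cells in each library were compared. With 1 library per goat, a cluster mostly from 1 library may be that library rather than a cell type. Among the kept cells, 11 barcode sequences were present in both libraries.

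The ligands came from different compartments of the skin. BMP3 and INHBA had by far their highest level in the fibroblast-like class. BMP4 and BMP7 had their highest mean level there but were also present in epithelial classes, and BMP2 was epidermal. The fibroblast-like class was mixed, and its cells led by collagen genes had no BMP3 and little INHBA, as described below. The leading class, the one with the highest mean level over both libraries, held 98.6% of the summed class levels for BMP3 and 87.2% for INHBA. For BMP4 and BMP7 the fibroblast-like class held 30.3% and 26.5%. For BMP2 the suprabasal epidermal-like class held 15.3%. The outer root sheath or bulge-like class led for both remaining genes, with 17.8% for ID4 and 10.8% for BMPR1A. At least 50% of the summed levels lay in 1 class for 5.98% of the 13014 genes with at least 100 UMIs, whose median was 14.4%. BMP3 reached 100 UMIs only through the fibroblast-like class, so nothing is read from its share, and among the other 6 genes INHBA alone passed 50%.

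**Figure D1:**
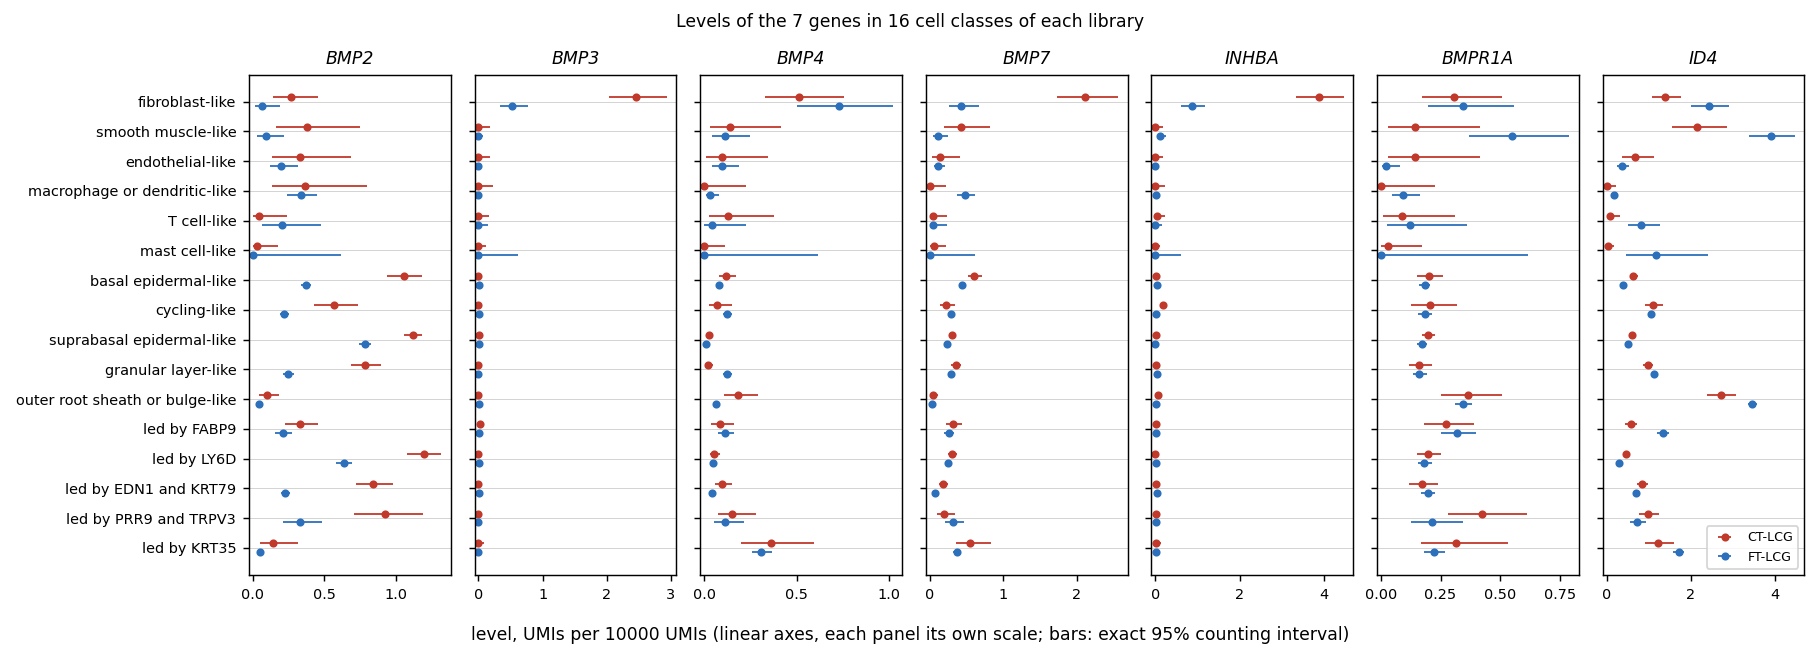
Level of each gene (horizontal axis, UMIs per 10000 UMIs, linear, with its own scale in each panel) in 16 cell classes (vertical axis), with CT-LCG in red and FT-LCG in blue; bars are exact 95% counting intervals. BMP3 and INHBA stand at or near 0 outside the fibroblast-like class, BMP2 is high across epidermal classes, and the fibroblast-like levels of BMP3, BMP7 and INHBA are higher in CT-LCG than in FT-LCG.

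BMP3, a ligand known to oppose signalling by other BMPs, had most of its UMIs in the fibroblast-like class. In fibroblast-like cells its level was 2.46 (2.04 to 2.94) in CT-LCG and 0.515 (0.330 to 0.766) in FT-LCG. All other classes together held 3 of its 123 CT-LCG UMIs and 19 of its 43 FT-LCG UMIs, the latter spread over 17 of 9499 cells. In FT-LCG, 10 of the UMIs came from 1 fibroblast-like cell, and the level without it was 0.305. The fibroblast-like class thus held 97.6% of the CT-LCG BMP3 UMIs and 55.8% of those of FT-LCG. No BMP3 UMI was found in granular layer-like or T cell-like cells of either library.

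INHBA encodes the inhibin beta A subunit, whose dimer is activin A. Its fibroblast-like level was 3.87 (3.34 to 4.46) in CT-LCG and 0.858 (0.613 to 1.17) in FT-LCG. The class held 82.5% of CT-LCG INHBA molecules but 17.2% of those in FT-LCG, where basal epidermal-like cells held 21.1% and granular layer-like cells 15.5%. These FT-LCG cells were many and their levels low, at 0.0351 in basal epidermal-like and 0.0488 in granular layer-like cells. A single granular layer-like cell held 10 of the INHBA UMIs, and the granular layer-like level was 0.0354 without it. INHBA was therefore concentrated in fibroblast-like cells by level in both libraries, whereas by molecules this held in CT-LCG. The cycling-like class had the second highest mean level, with 0.175 in CT-LCG, from 17 UMIs in 1.36% of its cells, and 0.0254 in FT-LCG.

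BMP4, a dermal papilla ligand in other species, had a level of 0.512 (0.331 to 0.756) in the fibroblast-like cells of CT-LCG and 0.729 (0.505 to 1.02) in FT-LCG. The next of the 16 compared classes was led by KRT35, a hair keratin gene, with 0.361 (0.202 to 0.595) in CT-LCG and 0.310 (0.259 to 0.367) in FT-LCG. The hair matrix or cortex-like class, with too few CT-LCG cells (18) to be compared, had 0.429 in its 119 FT-LCG cells, on 18 UMIs. In CT-LCG it had 1 BMP4 UMI. The pair of values in the KRT35-led class lay below both fibroblast-like values and above both values of the class that followed, led by PRR9, at 0.152 and 0.114. Fibroblast-like cells held 12.9% of the CT-LCG BMP4 UMIs and 4.72% of those of FT-LCG, and the epithelial classes had far more cells. In FT-LCG, 1 granular layer-like cell with 139578 UMIs held 74 BMP4 UMIs, which was 10.3% of the library's BMP4, and the granular layer-like level of 0.125 became 0.0249 without it.

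BMP7, a ligand of both the mesenchyme and the epithelium of hair, stood at 2.11 (1.72 to 2.56) in the fibroblast-like cells of CT-LCG and at 0.429 (0.262 to 0.663) in FT-LCG. Basal epidermal-like cells followed at 0.607 (0.517 to 0.708) and 0.441 (0.407 to 0.477), and the KRT35-led class at 0.553 (0.350 to 0.830) and 0.366 (0.311 to 0.428). The 3 classes thus could not be ordered in FT-LCG, where their intervals overlapped, while in CT-LCG the fibroblast-like level stood clear of the other two. Macrophage or dendritic-like cells had a BMP7 level of 0.482 (0.370 to 0.618) in FT-LCG and no BMP7 UMI in the 30 cells of CT-LCG. Outer root sheath or bulge-like cells had little BMP7, at 0.0427 and 0.0310.

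BMP2, a ligand whose known sites include the follicle epithelium and the differentiating epidermis, had the opposite distribution. Its level in suprabasal epidermal-like cells was 1.12 (1.06 to 1.19) in CT-LCG and 0.785 (0.742 to 0.829) in FT-LCG, and these cells held 49.2% and 40.6% of its UMIs. The LY6D-led class, whose leading genes also include KRT14, followed at 1.19 (1.08 to 1.32) and 0.636 (0.583 to 0.693), and basal epidermal-like cells at 1.06 (0.935 to 1.19) and 0.371 (0.340 to 0.405). The ranges of these neighbouring classes over the libraries overlapped, so the order within the epidermis was not resolved. Outer root sheath or bulge-like cells were low in BMP2, at 0.0962 and 0.0442. Fibroblast-like cells had 0.266 and 0.0644, which lay near or below the BMP2 levels of 0.272 and 0.181 in the barcodes that the authors had not kept.

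BMPR1A, a type I receptor for BMP ligands, was the most evenly spread of the 7. Its level in outer root sheath or bulge-like cells was 0.363 (0.252 to 0.508) in CT-LCG and 0.344 (0.310 to 0.381) in FT-LCG. In suprabasal epidermal-like cells it was 0.198 (0.172 to 0.226) and 0.171 (0.152 to 0.193). The first 4 classes in its order (outer root sheath or bulge-like, smooth muscle-like, fibroblast-like and PRR9-led) overlapped with their neighbours, and smooth muscle-like cells differed between the libraries, at 0.143 (0.0294 to 0.417) and 0.550 (0.368 to 0.789). UMIs of the receptor were thus found in the epithelial classes as well as in the fibroblast-like class, at 0.307 and 0.343. In the barcodes that the authors had not kept, the BMPR1A level was 0.278 (0.209 to 0.361) and 0.351 (0.245 to 0.488). Neither the fibroblast-like nor the outer root sheath or bulge-like levels stood clear of that background.

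ID4 encodes an inhibitor of basic helix-loop-helix transcription factors, and ID genes are known targets of BMP signalling. In outer root sheath or bulge-like cells its level was 2.71 (2.39 to 3.07) and 3.47 (3.36 to 3.58). This value depended on how the class was drawn, and ran from 0.902 to 4.94 for CT-LCG and from 1.92 to 5.86 for FT-LCG over the other clusterings. Smooth muscle-like cells reached 2.14 (1.56 to 2.86) and 3.90 (3.39 to 4.48), and the ranges of both classes overlapped. Within the outer root sheath or bulge-like class, the cluster led by BGN, CXCL14 and SFRP1 had 3.82 in CT-LCG and 4.07 in FT-LCG. Suprabasal epidermal-like cells, which held the most BMP2 UMIs, were lower in ID4, at 0.614 and 0.518.

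The cells with RSPO3 or WIF1 were then examined, since these Wnt pathway genes mark the dermal papilla. A UMI of either gene was found in 87 cells of CT-LCG and 74 of FT-LCG, of which 59 and 11 were fibroblast-like. The fibroblast-like ones made up 1.71% (1.31 to 2.20) of the kept cells in CT-LCG and 0.114% (0.0572 to 0.205) in FT-LCG. In FT-LCG, 31 of the other 63 cells were outer root sheath or bulge-like, 30 of them with WIF1. Among the fibroblast-like cells, 8 of 59 and 1 of 11 had a single UMI of the pair, and the median cell had 10 and 13. The fibroblast-like class itself took up 3.05% and 1.13% of the kept cells, and the shares reflect what dissociation and capture recovered.

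The fibroblast-like cells with RSPO3 or WIF1 often held several ligands. Fibroblast-like is here the name of their class. Their summed level of fibroblast markers was 20.4 and 62.0, against 321 and 319 in the other cells of the class. INHBA was found in 42 of 59 cells in CT-LCG (71.2%, 57.9 to 82.2) and 9 of 11 in FT-LCG (81.8%, 48.2 to 97.7). BMP3 was found in 38 (64.4%, 50.9 to 76.4) and 8 (72.7%, 39.0 to 94.0), and BMP7 in 33 (55.9%, 42.4 to 68.8) and 8 (72.7%, 39.0 to 94.0). BMP4 was less frequent, in 11 (18.6%, 9.69 to 30.9) and 5 (45.5%, 16.7 to 76.6). The receptor BMPR1A was found in 12 and 1, ID4 in 15 and 2, and BMP2 in 9 and 0 of these cells. Single cells of CT-LCG held up to 19 UMIs of INHBA, 10 of BMP3, 8 of BMP7 and 2 of BMP4, with a median of 1 for the first 3 ligands and 0 for BMP4.

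**Figure D2:**
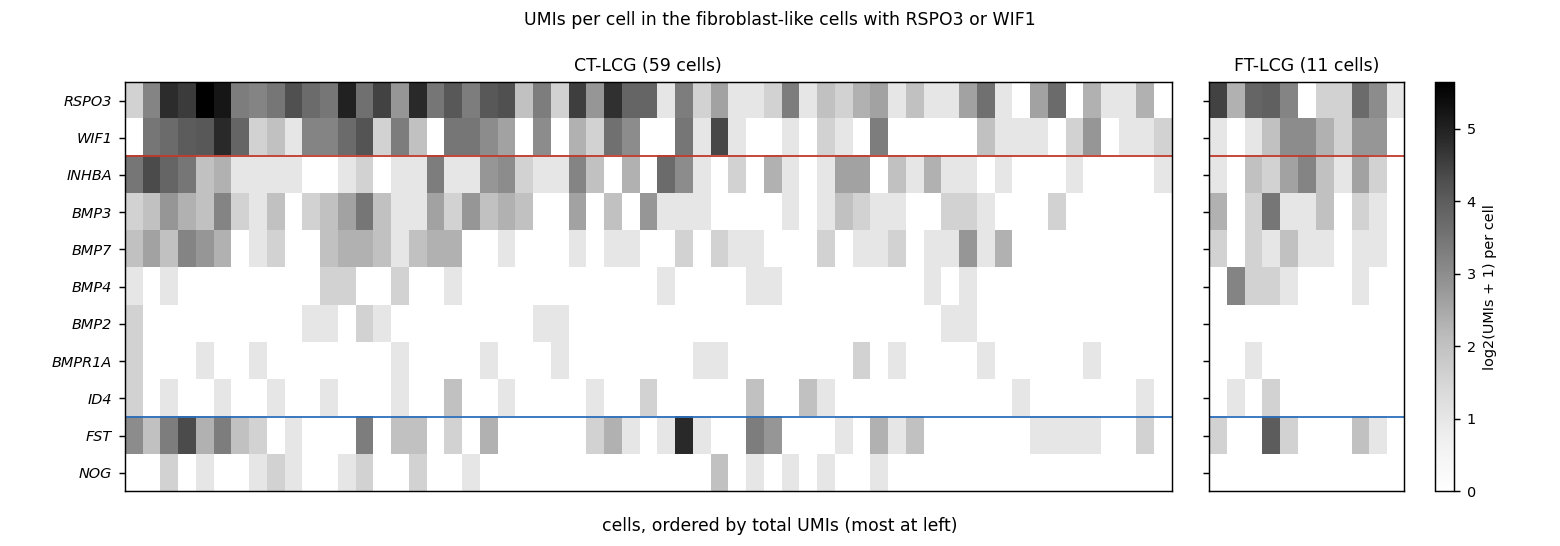
UMIs of RSPO3, WIF1, the 7 genes, FST and NOG (rows, grey scale, log2 of UMIs + 1) in each fibroblast-like cell with RSPO3 or WIF1 (columns, ordered by total UMIs with the deepest at the left), for 59 cells of CT-LCG and 11 of FT-LCG. INHBA, BMP3 and BMP7 fill most columns of the deeper cells, BMP4 and BMP2 are sparse, and NOG is absent from the FT-LCG cells.

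At least 2 of the ligands INHBA, BMP3, BMP7 and BMP4 were found together in 41 of the 59 cells for CT-LCG and in 8 of the 11 for FT-LCG. The same held for 6 of 46 and 5 of 98 other fibroblast-like cells, and for 0 of 28 and 3 of 63 cells with RSPO3 or WIF1 outside the class. All 4 ligands were found in 6 and 4 of the fibroblast-like cells with RSPO3 or WIF1. BMP3 and INHBA shared 30 of 59 cells, where their separate frequencies would give 27.1, and 8 of 11 cells, where they would give 6.55. BMP3 and BMP7 shared 27 and 8 cells, against 21.3 and 5.82 from their separate frequencies. BMP4 and INHBA shared 9 and 4 cells, against 7.83 and 4.09. Of these pairs, BMP3 and BMP7 lay furthest above the number from separate frequencies in both libraries. In FT-LCG the 8 cells with BMP3 were the same as the 8 with BMP7. The other pairs lay nearer to the number from separate frequencies. The cells also differed in depth, whose part in this was not tested.

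Depth differed between the groups, with a median of 5266 and 5431 UMIs in the fibroblast-like cells with RSPO3 or WIF1 and 3184 and 3310 in the other fibroblast-like cells. After thinning, which left 58 and 10 of the cells, INHBA was found in 36.2% and 50.0%, BMP3 in 24.1% and 40.0%, BMP7 in 12.1% and 40.0%, and BMP4 in 5.17% and 20.0%. In the other fibroblast-like cells the thinned shares were 14.3% and 3.49% for INHBA, 2.38% and 0% for BMP3, 9.52% and 2.33% for BMP7, and 4.76% and 6.98% for BMP4. The separation therefore remained for INHBA and BMP3 at equal depth in both libraries, whereas for BMP7 in CT-LCG and for BMP4 in CT-LCG the thinned shares lay close together. All these thinned shares come from a single random draw of UMIs per cell, and their spread between draws was not tested. Granular layer-like cells, a class that served as background, had 0% BMP3 before and after thinning. Their INHBA share was 1.61% and 3.69% before and 0% after it, and their BMP7 share was 34.7% and 26.3% before and 2.42% and 1.73% after, at median depths of 21074 and 15028 UMIs. T cell-like cells had 1.72% and 0% for INHBA, and 1.72% and 2.08% for BMP7, at 3919.5 and 4025.5 UMIs.

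Levels, which do not depend on depth in this way, were compared between the fibroblast-like cells with and without RSPO3 or WIF1. The level of BMP3 was 3.57 against 0.408 in CT-LCG, 8.74-fold higher (4.11 to 22.2), and 3.21 against 0 in FT-LCG, on 24 and 0 UMIs. The latter is at least 31.6-fold higher by the lower limit of the exact interval, and 42.0-fold when the 98 cells without the pair are given 3 UMIs in all. INHBA stood at 5.11 against 1.57 (3.25-fold, 2.15 to 5.08) and at 4.02 against 0.255 (15.7-fold, 7.49 to 36.1). BMP7 stood at 2.75 against 0.933 (2.94-fold, 1.72 to 5.38) and at 1.61 against 0.204 (7.87-fold, 2.96 to 22.2). By level, these 3 ligands were thus higher in cells with RSPO3 or WIF1 than in the other fibroblast-like cells of both libraries, with each interval above equality. For BMP7 in CT-LCG the thinned shares lay close together in the single draw taken. By share of cells it was therefore not shown to be higher there, while its level, which is scaled to depth, was. The intervals also treat UMIs of the same cell as separate. The other fibroblast-like cells were a mixture of kinds, described below, and the part of that mixture in these folds was not tested.

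BMP4 gave no such pattern. Its level was 0.442 against 0.641 in CT-LCG (0.689-fold, 0.291 to 1.68) and 1.88 against 0.511 in FT-LCG (3.67-fold, 1.72 to 7.64). In FT-LCG, 8 of its 14 UMIs came from 1 cell, which lay in a sub-cluster led by collagen genes, and the level without that cell was 0.930. ID4 was lower beside RSPO3 or WIF1 in both libraries, at 0.726 against 2.62 (0.277-fold, 0.160 to 0.467) and 0.402 against 2.81 (0.143-fold, 0.0290 to 0.429). BMPR1A differed in direction, at 0.442 against 0.0583 in CT-LCG and 0.134 against 0.383 in FT-LCG, on 1 UMI in the lower group of each.

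Among genes with at least 20 UMIs in fibroblast-like cells, a fold of at least 2 in the same direction in both libraries was reached upward by 4.35% of 5995 genes and downward by 6.16%. BMP2 had too few UMIs to enter, and BMP3 entered only through the cells with RSPO3 or WIF1, so its call had to follow. Of the other 5 genes, 2 were higher by level (BMP7 and INHBA) and 1 was lower (ID4). For BMP7 in CT-LCG the thinned shares lay close together, as given above. Of the other genes of the pathway, 27 entered, of which 3 were higher (FST, ID1 and ID3) and 1 lower (FSTL1).

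**Figure D3:**
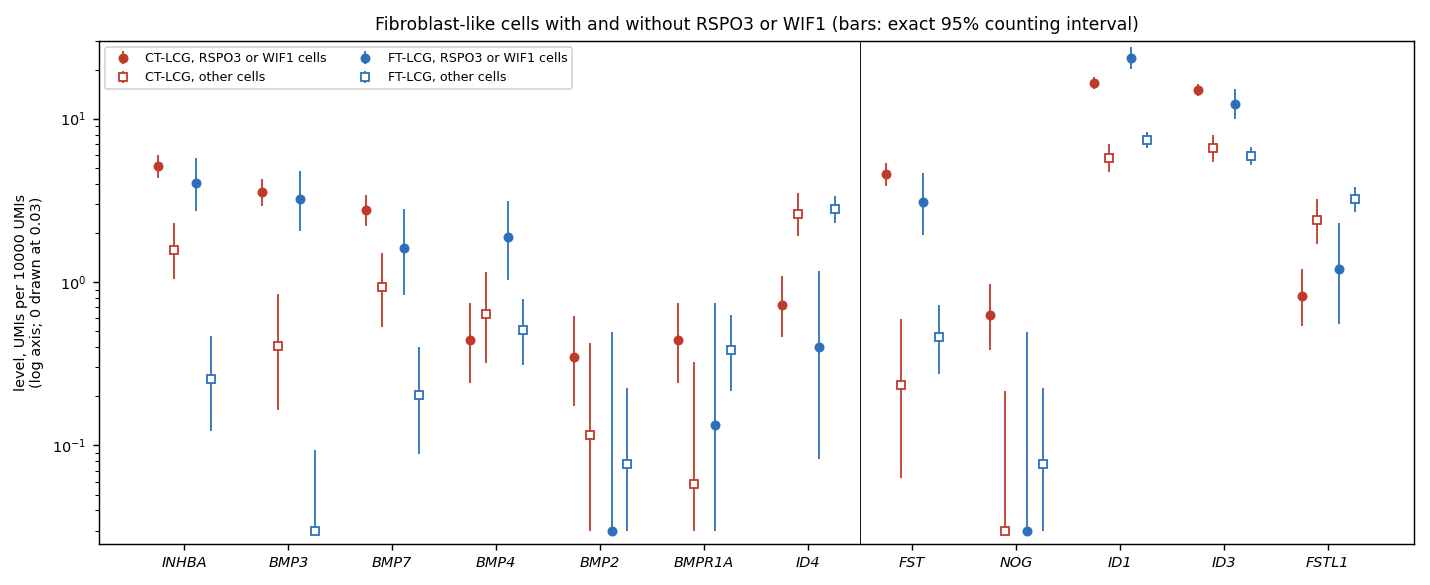
Level (vertical axis, log scale, UMIs per 10000 UMIs, with 0 drawn at 0.03) of the 7 genes and of FST, NOG, ID1, ID3 and FSTL1 in fibroblast-like cells with RSPO3 or WIF1 (filled circles) and without (open squares), with CT-LCG in red and FT-LCG in blue; bars are exact 95% counting intervals. INHBA, BMP3 and BMP7 are higher in the filled circles of both libraries, ID4 is lower, and BMP4 has its filled circle above its open square in FT-LCG and below it in CT-LCG.

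Antagonists and targets of the pathway were present in the same cells. FST encodes follistatin, which binds activins, and stood at 4.58 against 0.233 in CT-LCG and at 3.08 against 0.460 in FT-LCG. In FT-LCG, 15 of its 23 UMIs beside RSPO3 or WIF1 came from 1 cell, the same cell that held 10 BMP3 UMIs. No FST level without that cell was taken. INHBA and FST were found together in 24 of 59 and 5 of 11 cells. NOG encodes noggin, which binds BMP ligands, and had 20 UMIs in these cells of CT-LCG and 0 in the other fibroblast-like cells (at least 2.67-fold higher by the lower limit of the exact interval, and 3.61-fold at 3 UMIs), but 0 against 3 UMIs in FT-LCG. BMP7 and NOG shared 11 of 59 cells in CT-LCG. FSTL1, a follistatin-related secreted protein, was lower beside RSPO3 or WIF1, at 0.821 against 2.39 and 1.21 against 3.22. The targets ID1 and ID3 were higher, ID1 at 16.6 against 5.77 and 23.6 against 7.41 and ID3 at 14.99 against 6.59 and 12.3 against 5.93, which is the opposite direction to ID4.

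Read from the ligand side, BMP3 pointed to cells with RSPO3 or WIF1 more often than INHBA, BMP7 and BMP4 did. A UMI of RSPO3 or WIF1 was found in 38 of the 45 CT-LCG cells with BMP3 and in 8 of the 25 FT-LCG cells with it, and these cells held 91.9% and 55.8% of the BMP3 UMIs. For INHBA it was found in 43 of 69 and 11 of 142 cells, with 71.2% and 13.8% of the UMIs. For BMP7 the cells with RSPO3 or WIF1 held 9.35% and 1.09% of the UMIs, while basal epidermal-like cells held 17.1% and 29.1%. Every BMP3 UMI in cells with RSPO3 or WIF1 lay in the fibroblast-like class, since the 28 and 63 cells outside it held 0, which allows a level of up to 0.193 and 0.0259. Those outside cells held 1 and 2 INHBA UMIs.

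The 31 outer root sheath or bulge-like cells with RSPO3 or WIF1 in FT-LCG had a high level of the target ID4 and few ligand UMIs. Their ID4 level was 6.42 (5.89 to 6.99), against 3.22 (3.10 to 3.33) in the other 806 cells of the class, and the shares of cells with ID4 after thinning were 45.2% and 30.5%. The FT-LCG cell with the most ID4, 92 of its 88921 UMIs, was 1 of the 31, and no level without it was taken. The intervals do not cover the spread between cells. The 31 cells held 0 UMIs of BMP3 and BMP7, 1 of INHBA and 4 of BMP4. Their median depth was 9906 UMIs, against 7026.5. CT-LCG had 1 such cell, so no comparison was possible there.

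The fibroblast-like class was mixed, and it was divided again without the 7 genes, the pathway list, RSPO3 or WIF1, a step added after the data were seen. A sub-cluster of 45 CT-LCG cells and 11 FT-LCG cells was dermal papilla-like, with 6 and 5 of the 8 listed markers detected and CORIN and TNN at 0 in both libraries. That marker list itself holds RSPO3 and WIF1, and none of its genes was among the 10 that led the sub-cluster. It was led by CXCL13, SOX18, SPP1, PENK and CRYM, and 41 and 9 of its cells had RSPO3 or WIF1. The others were led by ANK3 and MAL and left unnamed (32 and 17 cells), by CPZ, COL1A2 and LUM (8 and 40, called collagen-led here), and by RGS5 and TAGLN (10 and 33), or were melanocyte-like with MLANA and PMEL (10 and 8). The libraries thus held these sub-clusters in different proportions.

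In the dermal papilla-like sub-cluster BMP3 stood at 3.66 (3.00 to 4.42) in CT-LCG and 3.53 (2.26 to 5.25) in FT-LCG. In FT-LCG, 10 of its 24 UMIs there came from 1 cell. INHBA stood at 5.40 (4.59 to 6.32) and 4.70 (3.22 to 6.64), and was found in 37 of 45 and 10 of 11 cells. BMP7 stood at 2.50 (1.96 to 3.14) and 1.76 (0.911 to 3.08). BMP3 was at 0 in the collagen-led, RGS5-led and melanocyte-like sub-clusters of both libraries, and INHBA reached at most 0.458 there, in the collagen-led cells of FT-LCG. BMP4 stood at 0.547 (0.313 to 0.889) and 0.882 (0.324 to 1.92) in the dermal papilla-like cells. In the collagen-led cells it had 0 UMIs in the 8 cells of CT-LCG and a level of 1.44 (0.901 to 2.18) in FT-LCG, which was 0.980 without the cell with 8 UMIs, so no order of these sub-clusters is drawn. BMP7 stood at 2.12 in those 8 cells and at 0.392 in the 40 of FT-LCG. The CT-LCG value lay inside the BMP7 interval of the dermal papilla-like cells, 1.96 to 3.14.

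The unnamed sub-cluster, with a median depth of 1514 and 1074 UMIs, differed between the libraries. Its summed level of dermal papilla markers was 20.2 and 2.93, of Schwann markers 0.781 and 9.45, and of basal epidermal markers 21.3 and 127. Whether its cells were of the same kind in both libraries was not tested. In CT-LCG the unnamed sub-cluster had INHBA at 4.69, BMP7 at 2.97 and BMP3 at 2.03, and 17 of its 32 cells had RSPO3 or WIF1. In FT-LCG it had 0 UMIs of each of the 3 ligands in 17 cells, of which 1 had RSPO3 or WIF1. By the exact interval, this count leaves room for a level of up to 1.20. ID4 was highest in the melanocyte-like sub-cluster, at 7.89 (5.36 to 11.2) and 3.5 (1.86 to 5.99), and in the RGS5-led one, at 2.93 (1.51 to 5.12) and 3.38 (2.58 to 4.36). It was low in the dermal papilla-like one, at 0.582 and 0.588. The lower ID4 beside RSPO3 or WIF1 was therefore measured against cells that include melanocyte-like and RGS5-led ones, and their part in that difference was not tested. All other genes compared this way, among them INHBA, BMP7 and FST, were set against the same mixed cells.

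**Figure D4:**
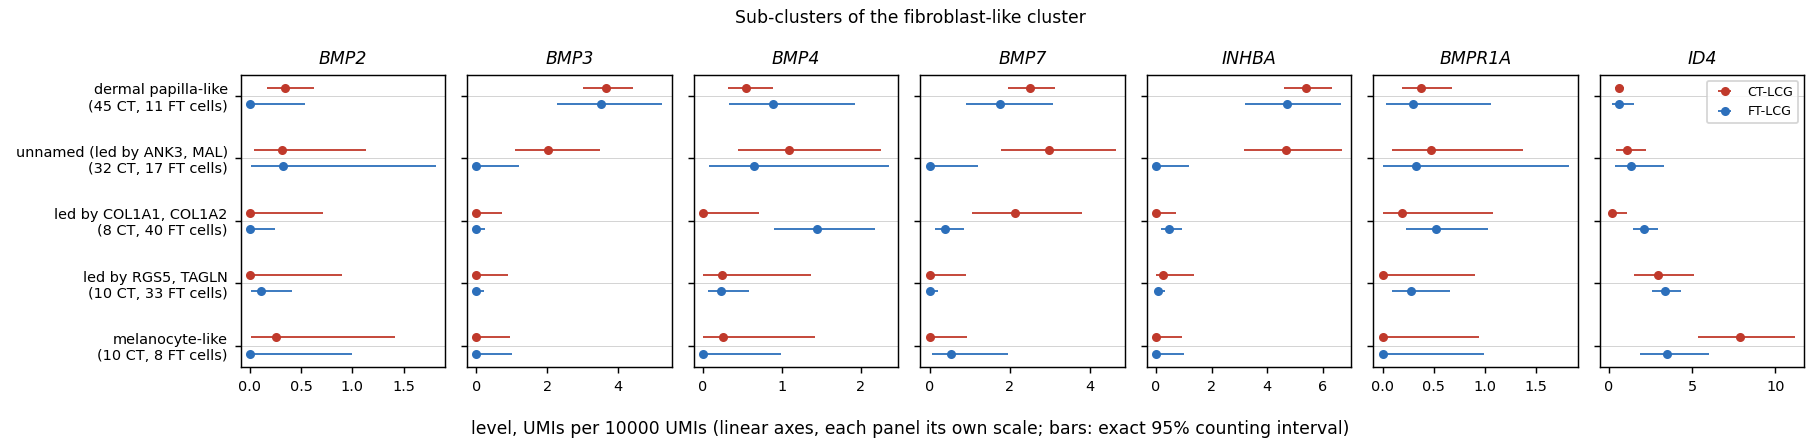
Level of each gene (horizontal axis, UMIs per 10000 UMIs, linear, with its own scale in each panel) in the 5 sub-clusters of the fibroblast-like class (vertical axis, with cell numbers), with CT-LCG in red and FT-LCG in blue; bars are exact 95% counting intervals. In the dermal papilla-like cells the intervals of the libraries overlap for BMP3 and INHBA, and 1 FT-LCG cell gave 10 of the 24 BMP3 UMIs. The unnamed sub-cluster, whose markers differed between the libraries, holds both ligands in CT-LCG alone. ID4 is highest in melanocyte-like cells.

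The levels of CT-LCG and FT-LCG were then set side by side as log2 ratios, positive where CT-LCG was higher. Over all cells BMP3 was higher in CT-LCG by 3.13 (2.62 to 3.67), INHBA by 1.60 (1.33 to 1.87), BMP2 by 1.30 (1.23 to 1.38) and BMP7 by 0.45 (0.33 to 0.56). BMPR1A was at -0.02 (-0.16 to 0.12), BMP4 at -0.28 (-0.52 to -0.05) and ID4 at -0.51 (-0.58 to -0.44). A ratio of at least 2-fold toward CT-LCG was reached by 7.25% of 13014 genes and toward FT-LCG by 8.31%. BMP3 reached 100 UMIs only through CT-LCG, and of the other 6 genes BMP2 and INHBA passed toward CT-LCG and 0 toward FT-LCG. The median over all genes was -0.03. The sign for BMP4 turned when cells were weighted equally or thinned, to 0.15 and 0.46, so no direction was drawn for it.

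The libraries also differed in their share of fibroblast-like cells and of cells with RSPO3 or WIF1, given above, and in a ratio over all cells fewer such cells and less RNA per cell cannot be told apart. Among fibroblast-like cells BMP3 was higher in CT-LCG by 2.25 (1.61 to 2.95), INHBA by 2.17 (1.67 to 2.70) and BMP7 by 2.30 (1.60 to 3.07). There 3 of the 6 genes with at least 20 UMIs were at least 2-fold higher in CT-LCG, against 10.3% of 5997 genes, and 0 in FT-LCG, against 8.4%. Among fibroblast-like cells with RSPO3 or WIF1, however, the log2 ratios were 0.15 (-0.50 to 0.85) for BMP3, 0.35 (-0.22 to 0.96) for INHBA and 0.77 (-0.10 to 1.78) for BMP7. Of the 5 genes with at least 20 UMIs in these cells, 0 were at least 2-fold higher in CT-LCG, against 16.2% of 2938 genes, and 1 in FT-LCG (BMP4), against 8.78%. In the dermal papilla-like sub-cluster the log2 ratios of BMP3, INHBA and BMP7 were 0.05 (-0.60 to 0.76), 0.20 (-0.35 to 0.80) and 0.50 (-0.39 to 1.52). In both groups of cells, 1 cell gave 10 of the 24 BMP3 UMIs of FT-LCG, and no ratio without it was taken. Per cell of this kind a difference between the libraries was therefore not detectable at this depth. On thinned cells the first 3 ratios were -0.95, -0.54 and -1.37. Those thinned ratios come from a single random draw and have no interval, so no direction is drawn from them. Outside the fibroblast-like class the ratio of INHBA was -0.63 (-1.16 to -0.13) and that of BMP3 was -1.03 (-3.43 to 0.73).

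BMP2 differed in another way. Its level was higher in CT-LCG in 15 of the 16 classes, and the counting interval lay above 0 in 9 of them. The log2 ratio was 1.51 (1.29 to 1.72) in basal epidermal-like cells, 1.67 (1.39 to 1.96) in granular layer-like cells and 0.51 (0.40 to 0.63) in suprabasal epidermal-like cells. In T cell-like cells, which had 1 and 5 UMIs, it was -2.25 (-7.82 to 0.91). The higher BMP2 level of CT-LCG was thus present in several epidermal classes. For BMP3 the interval lay above 0 in 1 class, the fibroblast-like one. Cells outside that class held only 3 and 19 BMP3 UMIs, too few to compare the libraries class by class.

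For ID4 the direction depended on the class. The log2 ratio was -0.35 (-0.54 to -0.17) in outer root sheath or bulge-like cells and -1.22 (-1.64 to -0.82) in the FABP9-led class, but 0.70 (0.45 to 0.95) in basal epidermal-like cells. Its interval lay above 0 in 4 classes and below 0 in 8. For BMP4 among the fibroblast-like cells with RSPO3 or WIF1 the ratio was -2.09 (-3.26 to -0.91), and it was -0.69 (-2.12 to 0.95) in the dermal papilla-like sub-cluster, which does not hold the cell with 8 UMIs.

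**Figure D5:**
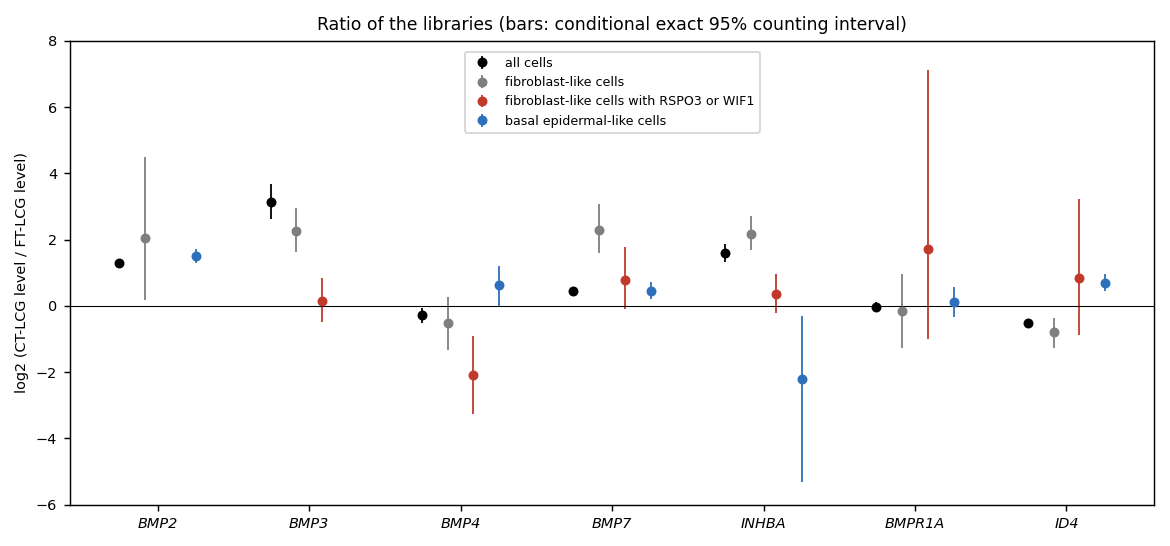
Log2 ratio of the CT-LCG level to the FT-LCG level (vertical axis) for each gene, over all cells (black), fibroblast-like cells (grey), fibroblast-like cells with RSPO3 or WIF1 (red) and basal epidermal-like cells (blue); bars are conditional exact 95% counting intervals, and a ratio with 0 UMIs on one side is not drawn. BMP3 and INHBA lie well above 0 over all and fibroblast-like cells, but their intervals hold 0 in cells with RSPO3 or WIF1. BMP2 is above 0 in basal epidermal-like cells as well.

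The other ligands of the pathway were mostly scarce. The fibroblast-like class led for 15.3% and the KRT35-led class for 8.17% of the 13014 genes, and counts of genes led by a class are to be read beside these. Of 16 further BMP, GDF and activin ligand genes, 3 had at least 100 UMIs (BMP6, GDF15 and INHBB) and 6 had none. INHBB encodes the inhibin beta B subunit and, unlike INHBA, was led by smooth muscle-like cells, with 21.7% of its summed class levels. BMP6 was led by endothelial-like cells, with 33.6%. Of the 3 TGF-beta ligands, TGFB3 was led by the fibroblast-like class, with 16.1%, and TGFB1 by T cell-like cells, with 40.6%. The lead for TGFB3 came from FT-LCG alone, where fibroblast-like cells had 10 UMIs and a level of 0.215. In CT-LCG they had 3 UMIs and a level of 0.0614, below the 0.171 of outer root sheath or bulge-like cells. Among 14 further receptor genes, 13 passed that minimum and fibroblast-like cells led for 1, ACVR1, while the endothelial receptors ACVRL1 and ENG were led by endothelial-like cells with 67.6% and 80.6%.

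Among antagonists, 6 of the 12 in the matrix passed, and the fibroblast-like class led for 4 of them, FSTL1 with 61.8%, FSTL3 with 48.9%, FST with 30.4% and TWSG1 with 14.7%. BAMBI, a pseudoreceptor that limits signalling, was led by the KRT35-led class with 37.9%, and SOSTDC1, a secreted BMP and Wnt antagonist, by outer root sheath or bulge-like cells with 16.9%. All 8 further target genes passed, and the KRT35-led class led for 4 of them, MSX2 with 38.1%, ID3 with 28.1%, MSX1 with 26.6% and DLX3 with 20.0%. Of 10 SMAD and SMURF genes the fibroblast-like class led for 3, of which SMAD6, an inhibitory SMAD, had 24.96%.

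Leaving out the 7 genes themselves, the genes most like each of them over 38 points, which were the clusters with at least 20 cells in each library counted once per library, are given as a description. The points share their library and its depth. For BMP3 they were ITGBL1, HHIP and C1QTNF7, with Pearson r of 0.991, 0.983 and 0.979, and for INHBA they were PDGFRA, PROK2 and ITGBL1, with 0.931, 0.929 and 0.928. The mean BMP3 level was at most 0.0114 in the other compared classes, so its r values rest mainly on the fibroblast-like cluster. Between BMP3 and INHBA r was 0.939, with the fibroblast-like cluster at the top of both. The values were lower for BMP4 (STEAP1, 0.797), BMP7 (ROBO1, 0.706), BMP2 (LOC102175704, 0.866), BMPR1A (ZNF532, 0.839) and ID4 (HDAC11, 0.818).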

How the data were processed

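Skin cells of 2 goats were captured with the 10x Chromium single-cell 3′ V3 kit, and the authors deposited UMI counts per gene and barcode, not normalized, made with Cell Ranger (3.0.2 in the file header). The submitters' processing notes also name bcl2fastq and Seurat 3.1.1, and only a human and a mouse genome build; which goat build and annotation were used is not given in the sources used here. Cells were those of the authors' deposited cell table, filtered by them on detected genes and mitochondrial share, and that table also gave each cell's library. The sample labels give no fibre type, so both samples were left unassigned.

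Counts were scaled to 10000 per cell and logged, and 2000 variable genes per library, combined by rank without the 7 genes, the pathway list, RSPO3 and WIF1, gave 10 principal components, Harmony on library (rewritten in numpy), a shared neighbour graph with 20 neighbours and Leiden clusters at resolution 1. The fibroblast-like class was divided with 5 components, 1000 variable genes and resolution 0.5. A cluster took the name of the marker list with the highest mean log2 fold, of at least 1, over at least 3 markers with 10 or more UMIs, where that list had the most genes among the 10 leading ones or no list had any; this rule was set after the clusters were seen. Scrublet called 0 doublets in both libraries, so it had not worked, and no cells were removed; leaving out the 172 and 480 cells with the highest 5% of scores was an alternative.

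Levels have exact Poisson and shares exact Clopper-Pearson 95% intervals, ratios a conditional exact interval, and a count of 0 a floor of 3 counts. With 1 library per fibre type there was no replicate, test or p-value. The text names the 7 genes, the genes of the pathway list, RSPO3, WIF1, markers used to check a class, leading genes that label a cluster, and for each of the 7 the genes with the highest Pearson r, of 3 listed, on log2(level + 0.1) over clusters by library, among genes with at least 100 UMIs. The 7 genes and all lists were chosen with earlier results of these data known. The intervals were tested on simulated Poisson counts only, which leave out the clustering of UMIs within single cells. Software was scanpy 1.11.5, leidenalg 0.10.2, igraph 0.11.9, scikit-learn 1.9.0, scipy 1.17.1, numpy 2.4.6, matplotlib 3.10.9 and pandas 2.3.3 under Python 3.11.15. Alternatives changed the clustering, cells, doublets, free RNA, thinning, cell weighting and the genes that chose cells. No reference sequences were used here, so none are shown.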

Additional observations from a re-analysis of the deposited data

How the results depend on the processing

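No paired analysis was possible because there is 1 library per fibre type, and no replicate was left out for the same reason. Of 277 values under alternative settings for 35 results, 205 stayed inside the counting interval of the reported value, 70 lay outside it, and 2 turned the sign of a value whose interval left out 0. Ratios whose interval held 0 are counted by the interval alone, also where their sign changed. Besides BMP3, INHBA remained the only gene of those described with at least 50% in 1 class under all 7 alternatives run for that count. Nothing is read from BMP3 there, since it reached the UMI minimum only through the fibroblast-like class. The alternatives that used the dermal papilla-like sub-cluster or left out the cell with the most UMIs were chosen after seeing the data. Where no cause is given, the cause was not tested.

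The fibroblast-like share of BMP3 UMIs in CT-LCG was 91.8% as a mean over cells and 89.5% on cells thinned to 1000 UMIs, and in FT-LCG 71.4% on thinned cells. That of INHBA in CT-LCG was 88.9% after subtracting 10% free RNA and 89.2% as a mean over cells, and in FT-LCG 26.0% as a mean over cells and 29.4% thinned. The fibroblast-like level of BMP7 was 1.3 in CT-LCG when thinned and 0.698 in FT-LCG with 20 principal components, which also gave 1.05 for BMP4 in FT-LCG.

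The suprabasal epidermal-like BMP2 level in CT-LCG was 0.896 at resolution 1.5, 1.25 with 20 components, 0.912 with the 7 genes and the pathway list allowed in clustering, 0.904 without high Scrublet scores, 1.26 as a mean over cells and 0.970 thinned. In FT-LCG it was 0.571 at resolution 0.6, 0.647 at resolution 1.5, 0.899 with 20 components, 0.653 with those genes allowed, 0.557 without high Scrublet scores and 0.832 after free RNA was subtracted.

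The outer root sheath or bulge-like ID4 level in CT-LCG was 1.17 at resolution 1.5, 2.12 without Harmony, 4.94 with 20 components, 0.902 with those genes allowed, 1.20 in cells with at least 1000 genes, 1.21 without high Scrublet scores and 4.00 as a mean over cells. In FT-LCG these settings gave 2.15, 2.57, 5.86, 1.92, 2.24, 2.15 and 4.83, with 3.73 after free RNA was subtracted and 4.90 thinned. For BMPR1A in CT-LCG the level was 0.605 without Harmony and 0.521 in cells with at least 1000 genes, and in FT-LCG 0.460 and 0.417, with 0.441 for 20 components, 0.474 as a mean over cells and 0.490 thinned.

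Thinning the CT-LCG fibroblast-like cells with RSPO3 or WIF1 to 1000 and 2000 UMIs gave 36.2% and 51.0% with INHBA, 24.1% and 49.0% with BMP3, 12.1% and 36.7% with BMP7, and 5.17% and 8.16% with BMP4. In FT-LCG, thinning to 2000 gave 20.0% for both BMP3 and BMP7, and choosing cells by WIF1 alone or by both genes gave 100% for INHBA. The dermal papilla-like sub-cluster of CT-LCG gave 77.8% for BMP3.

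The log2 ratio of CT-LCG to FT-LCG for BMP4 over all cells turned to 0.15 as a mean over cells and 0.46 thinned, and was -0.00297 with classes weighted equally. These settings gave 1.07, 1.06 and 1.08 for BMP2 and 0.60, 0.70 and 0.65 for BMP7, and equal classes gave 2.21 for BMP3. On thinned fibroblast-like cells with RSPO3 or WIF1 the ratio was -0.54 for INHBA, -0.95 for BMP3 and -1.37 for BMP7, and in the dermal papilla-like sub-cluster it was -0.69 for BMP4. The thinned ratios of these cells come from a single random draw and have no interval. The FT-LCG values of these cells rest on 11 cells.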
